A study of Mus musculus with 6 samples.

Results

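The receptors and Smads that carry bone morphogenetic protein (BMP) and activin signals were examined in RNA-seq of the embryonic mouse brain. The genes were taken by name: the type I receptors Bmpr1a, Bmpr1b and Acvr1, the type II receptors Bmpr2, Acvr2a and Acvr2b, and the signal transducers Smad1, Smad5, Smad4 and Smad7. Of these 10 genes, 9 had at least 1 RefSeq transcript ID in the count tables, with 12 IDs of 23485 in all, and Acvr2b was not analysed here. Whole brains came from wild-type C57BL/6 embryos at E15.5, sexed by their gonads, and no embryo was mutant or treated. There were 3 female and 3 male samples, each made from RNA pooled over several embryos, so that each value is an average over a pool. The study compared the sexes, and so does every comparison given here, with positive log2 fold changes marking higher counts in males. Where 3 values are given for a sex, they belong to samples 1, 2 and 3 in that order.

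BMPs and activins are secreted dimers of the TGF-beta superfamily. They bring together type II receptors, whose kinase is constitutively active, and type I receptors, which are activated by the type II kinase and then phosphorylate receptor-regulated Smads. The phosphorylated Smads pair with the common partner Smad4 and enter the nucleus, while inhibitory Smads such as Smad7 limit the signal. In the developing nervous system the pathway is known for dorsal patterning, for the timing of neurogenesis and gliogenesis, and for growth of axons and dendrites.

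Totals per sample were 4908565 to 10294443 counts, at which a count of 0 allows up to 3 counts, or 0.291 to 0.611 CPM (counts scaled to library size), as a limit on counting error only. Xist, the X-inactivation transcript, had 6153 to 10001 counts in females and 4 to 7 in males, and the Y-linked Ddx3y and Kdm5d had 0 to 1 count in every female sample and 595 or more in every male sample. All 5 neuronal markers listed (Tubb3, Dcx, Stmn2, Map2 and Neurod6) passed the count minimum, with a summed level of 2421 to 3444 CPM. Markers of meninges and fibroblasts (17520 to 25800 CPM) and of skeletal muscle (4384 to 6135 CPM) were also present, with overlapping ranges in the 2 sexes. Both sums exceeded that of the neuronal markers in every sample. The levels given here are thus of the whole dissected sample, and the cells they came from were not measured. In these bulk samples, fewer cells of a type and less RNA per cell cannot be told apart.

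Of the 12 IDs, 6 reached the count minimum of 10 in at least 1 sample and were tested for a sex difference, 1 for each of Bmpr2, Bmpr1a, Acvr2a, Smad1, Smad4 and Smad7. Bmpr2 stood lowest in males relative to females, Bmpr1a was next, and the other 4 members had overlapping values in the 2 sexes. None of the 6 was called at an adjusted p under 0.05 by edgeR's quasi-likelihood test, where 0.0299% of all 13374 tested IDs were called. At an unadjusted p under 0.05, 1 of the 6 (Bmpr2) was lower in males and 0 were higher, beside 4.82% and 6.68% of all tested IDs. The male samples lay entirely below the female samples for 2 of the 6, Bmpr2 and Bmpr1a, and entirely above for 0, beside 8.33% and 8.73% of all tested IDs.

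Bmpr2 (NM_007561) encodes the type II receptor most closely tied to BMP ligands. The gene lies on the plus strand at chr1:59821481-59927703 of NCBIM37 (mm9), the build of the files. Its single annotated coding transcript in GENCODE has 13 exons and 3507 nt, of which 3117 nt are coding. Bmpr2 counts were 6062, 5096 and 8198 in females against 6310, 4307 and 7631 in males. Scaled to library size these were 979.9, 1014 and 836 CPM in females and 652, 657 and 762 CPM in males. Every male sample was thus below every female sample, with the nearest pair being female sample 3 and male sample 3.

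The mean of Bmpr2 was 943 ± 94.7 CPM in females and 691 ± 62.1 CPM in males (SD, n = 3 each), or 26.8% lower in males. The log2 fold change of Bmpr2 was -0.45 (SE 0.13, 95% interval -0.72 to -0.18), with an edgeR unadjusted p of 0.003255 and an adjusted p of 0.338. The call depended on the tool and on added factors. DESeq2 on the same counts gave an adjusted p of 0.0368, DESeq2 with 1 factor of unwanted variation (RUVr) 0.007075 and edgeR with 2 such factors 0.0268, against edgeR with 1 factor at 0.0776. The 3 procedures that called Bmpr2 each called 1 of the 6 members, as lower in males, beside 0.262%, 1.36% and 1.25% of all tested IDs. With 1 sample left out at a time, the fold change stayed between -0.52 and -0.39 and the edgeR adjusted p between 0.122 and 0.816. With trends over transcript length and GC content removed it was -0.40, and -0.16 (edgeR unadjusted p 0.1404) where Bmpr2 was given a longer length of 11087 nt, both described further on.

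**Figure D1:**
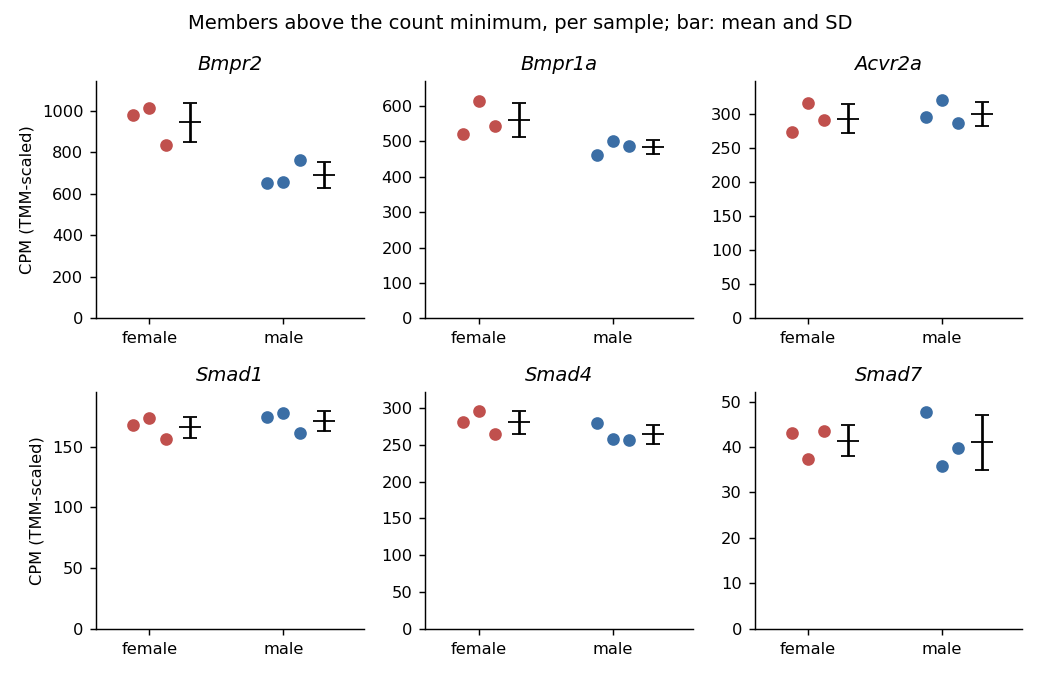
Library-scaled level (CPM, TMM-scaled, linear axis from 0) of the 6 tested members in each of the 3 female and 3 male samples, with the mean and SD beside each group. The 3 male values of Bmpr2 (652 to 762 CPM) and of Bmpr1a (463 to 502 CPM) sit below all female values, and the other 4 panels overlap.

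The study also measured Bmpr2 by RT-qPCR, and its primers place that assay on the gene. It chose transcripts for RT-qPCR from those it found differentially expressed with DESeq2 and RUVr. That choice came from the same RNA-seq samples as used here, so it is not separate from the DESeq2 and RUVr results above. Both primers matched chromosome 1 once and lie in exon 12, inside the coding sequence, with an amplicon of 112 nt. The forward primer is at chr1:59925110-59925129 and the reverse primer at chr1:59925200-59925221 (NCBIM37). They are printed 5′ to 3′ because they show which stretch of the transcript was read by that assay, whereas the counts sum over all exons.
Bmpr2 forward primer: ggcacataggtcccaagaaa
Bmpr2 reverse primer: ctgttgctctcgtctcagtaaa

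Upstream sequence was compared for the 2 measured type II receptors, since the ratio of their counts did not overlap between the sexes. Of the 10 genes, 8 had an entry in the RefSeq promoter table used (GRCm38.p6), with 12 windows. The 250 bases before the RefSeq start of Bmpr2 matched NCBIM37 once, at chr1:59820873-59821122 on the plus strand, which ends 358 bases before the GENCODE start. Those of Acvr2a matched once at chr2:48669379-48669628 on the plus strand, directly before the GENCODE start. Neither window overlaps an annotated exon of its gene. Capitals mark GGCGCC, a GC-rich element described for BMP-responsive Smads, which reads the same on both strands.
Bmpr2 upstream window: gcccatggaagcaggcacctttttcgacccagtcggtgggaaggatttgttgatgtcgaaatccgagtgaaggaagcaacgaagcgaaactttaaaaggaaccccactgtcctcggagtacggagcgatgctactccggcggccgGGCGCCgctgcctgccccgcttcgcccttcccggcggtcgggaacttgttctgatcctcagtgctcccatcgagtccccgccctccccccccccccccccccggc
Acvr2a upstream window: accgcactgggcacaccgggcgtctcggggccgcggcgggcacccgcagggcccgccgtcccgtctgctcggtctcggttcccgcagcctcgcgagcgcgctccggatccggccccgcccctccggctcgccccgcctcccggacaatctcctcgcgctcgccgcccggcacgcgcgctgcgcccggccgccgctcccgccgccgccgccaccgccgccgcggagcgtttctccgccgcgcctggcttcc

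The Bmpr2 window held 1 GGCGCC match and the Acvr2a window 0. Among the other members, the Bmpr1a window held 1 and 1 of 3 Smad5 windows held 1. Of all 32851 promoter windows of the same length in the table, 9.59% held at least 1 match. The GC content of the window was 64% for Bmpr2 and 82% for Acvr2a. A match gives letters only, and binding was not measured in these samples.

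Acvr2a (NM_007396) encodes the type II receptor for activins that also binds several BMPs. It lies at chr2:48669629-48758789 on the plus strand, with 11 exons and 5686 nt. Its counts were 1691, 1590 and 2852 in females against 2854, 2099 and 2871 in males. In CPM these were 273, 317 and 291 in females and 295, 320.4 and 287 in males. The 2 groups overlapped. Acvr2a averaged 294 ± 21.7 CPM in females and 301 ± 17.5 CPM in males (SD, n = 3 each), with a log2 fold change of 0.03 (SE 0.12, 95% interval -0.22 to 0.29) and an edgeR adjusted p of 0.933. Its sign turned under upper-quartile scaling (-0.02) and without female sample 1 or male sample 2.

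The balance between both type II receptors did not overlap between the sexes. The ratio of Bmpr2 to Acvr2a counts was 3.59, 3.21 and 2.87 in females against 2.21, 2.05 and 2.66 in males. Means were 3.22 ± 0.356 and 2.31 ± 0.314 (SD, n = 3 each), without overlap. A ratio within a sample does not depend on library scaling. Per length, Bmpr2 made up 82.3% to 85.3% of the summed RPKM (CPM per kilobase of transcript) of both genes in females and 76.9% to 81.2% in males. A longer Bmpr2 length of 11087 nt, from the RefSeq span, was also used. The shares were then 59.6% to 64.8% in females and 51.3% to 57.7% in males. Any fixed length keeps the order of the samples, so on overlap the shares repeat the count ratio. This share is a description of chosen genes, and no test was made on it.

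Bmpr1a (NM_009758) encodes a type I receptor for BMPs that is widely used in neural development. It lies at chr14:35223920-35316527 on the minus strand, and its longest coding transcript has 13 exons and 5956 nt. Its counts were 3229, 3083 and 5340 in females against 4475, 3288 and 4873 in males. In CPM these were 522, 614 and 545 in females and 463, 502 and 487 in males. The male values were all lower, with male sample 2 and female sample 1 closest to each other. The mean of Bmpr1a was 560.0 ± 47.8 CPM in females and 484 ± 19.8 CPM in males (SD, n = 3 each). Its log2 fold change was -0.21 (SE 0.12, 95% interval -0.46 to 0.04), with an edgeR unadjusted p of 0.0909 and an adjusted p of 0.493, so a difference was not shown by this test. With 1 sample left out at a time it ranged from -0.26 to -0.14, the latter without female sample 2, its highest (edgeR unadjusted p 0.291).

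Ratios between members were taken within each sample for all 15 pairs of the 6 tested genes. Male samples were all below female samples for 6 ratios, all above for 1, and overlapped for 8. Over all pairs of tested IDs without a count of 0, 15.7% of ratios did not overlap between the sexes. The 15 ratios are not independent, since each gene enters 5 of them, and Bmpr2 or Bmpr1a was the numerator in each of the 6. The ratio of Bmpr1a to Acvr2a was 1.91, 1.94 and 1.87 in females and 1.57, 1.57 and 1.70 in males. Its SD within a sex was 0.0334 and 0.0751. The longest coding transcripts of these 2 genes have similar length and GC content (41.3% and 39.9%), but the median coding transcript of Bmpr1a has 1407 nt. The ratio of Bmpr2 to Bmpr1a, the type II to the type I receptor, was 1.88, 1.65 and 1.54 in females and 1.41, 1.31 and 1.57 in males, which overlapped.

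**Figure D2:**
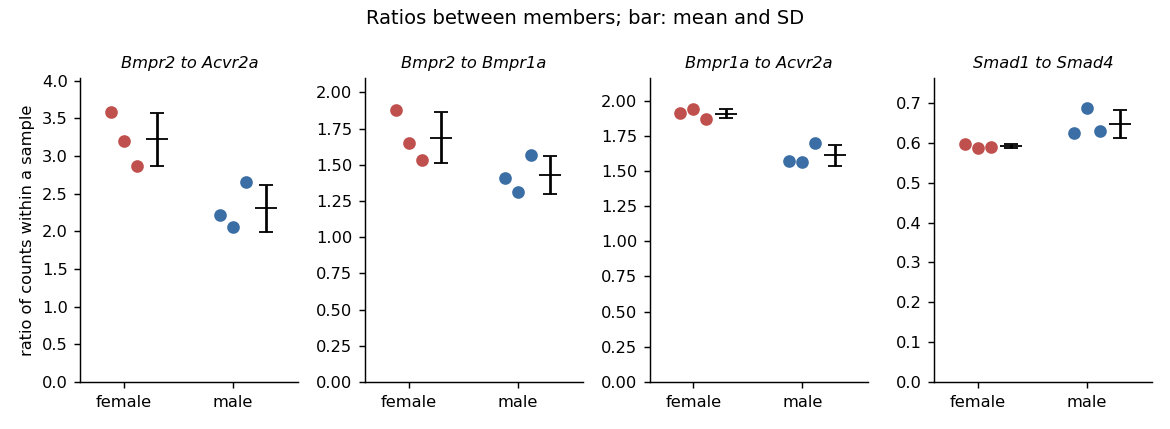
Ratio of raw counts between 2 members within each sample (linear axis from 0), for 3 female and 3 male samples, with mean and SD beside each group. Males sit below females for Bmpr2 to Acvr2a and for Bmpr1a to Acvr2a, above for Smad1 to Smad4, and overlap for Bmpr2 to Bmpr1a.

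Smad1 (NM_008539), a receptor-regulated Smad of the BMP branch, lies at chr8:81862294-81923417 on the minus strand, with 3775 nt. It had 168, 173 and 156 CPM in females against 175, 177 and 162 CPM in males. The ranges overlapped, with a log2 fold change of 0.04 (SE 0.12, 95% interval -0.21 to 0.29) and an edgeR adjusted p of 0.909. The sign turned under upper-quartile scaling (-0.01). Smad4 (NM_008540), the common partner of BMP and activin Smads, lies at chr18:73798663-73863434 on the minus strand, with 3384 nt. It had 281, 296 and 265 CPM in females and 279, 258 and 256 CPM in males, again overlapping. Its log2 fold change was -0.09 (SE 0.11, 95% interval -0.33 to 0.16), with an edgeR adjusted p of 0.802. With 1 sample left out it ranged from -0.13 (without male sample 1) to -0.05 (without female sample 2 or male sample 3), and it was -0.06 without male sample 2.

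Smad1 relative to Smad4 counts was 0.598, 0.587 and 0.591 in females and 0.625, 0.687 and 0.630 in males. This was the single ratio of the 15 with all males above all females. Smad7 (NM_001042660), an inhibitory Smad induced by both branches, lies at chr18:75527183-75555589 on the plus strand, with 4278 nt. Its counts were the lowest of the tested members, 188 to 461. In CPM it had 43.2, 37.4 and 43.4 in females and 47.7, 35.7 and 39.8 in males, so both the highest and the lowest value were male. Its log2 fold change of -0.01 (SE 0.16, 95% interval -0.35 to 0.33) changed sign under 5 of 19 alternatives, with an edgeR adjusted p of 0.985.

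By class, the 1 tested type I receptor had a log2 fold change of -0.21, the 2 tested type II receptors a median of -0.21 with 1 in each direction, and the 3 tested Smads a median of -0.01. With the length and GC trends removed, the type I value was -0.03 and the type II median -0.09, and with the longer Bmpr2 length of 11087 nt the type II median turned to 0.03. With 1 sample left out, the Smad median ranged from -0.13 (without male sample 1) to 0.03 (without male sample 2). The median over all 13374 tested IDs was -0.01, with 6822 lower and 6552 higher in males. The 95% intervals of Acvr2a and Smad1 reach up to 0.29 and that of Smad4 down to -0.33, so differences of these sizes are not excluded.

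Levels were compared between genes per length, as RPKM. Bmpr2 ranged from 186 to 289 RPKM over the 6 samples, Bmpr1a from 77.7 to 103, Smad4 from 75.8 to 87.4, Acvr2a from 48.1 to 56.3, Smad1 from 41.4 to 46.9 and Smad7 from 8.35 to 11.1. In this order, neighbours did not overlap except Bmpr1a and Smad4, which do not differ beyond their spread. The order rests on the annotated lengths. In RefSeq the gene spans 7580 bases more than in GENCODE, of which 358 lie before the GENCODE start, leaving 7222 for the 3′ side. With a length of 11087 nt, which adds all 7580 bases to the transcript, Bmpr2 had 58.8 to 91.5 RPKM and overlapped Bmpr1a and Smad4. The place of Bmpr1a also rests on length, with a mean of 87.6 RPKM for its longest and 371 RPKM for its median annotated coding transcript (1407 nt). At median lengths Smad4 averaged 97.0 RPKM, Smad1 54.4 RPKM, which is above Acvr2a at 52.3 RPKM, and Smad7 30.8 RPKM against 9.63 at its longest. For Smad4 the RefSeq span also exceeds that of GENCODE, by 4230 bases.

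Bmpr1b, Acvr1 and Smad5 had almost no counts. Bmpr1b, a BMP type I receptor, had 2 IDs whose summed counts were 3, 7 and 6 in females against 0, 5 and 2 in males. Acvr1, a type I receptor for BMPs that also binds activin, had 7, 2 and 4 counts in females and 0, 0 and 6 in males. Smad5, the close relative of Smad1, had 3 IDs with summed counts of 6, 3 and 12 in females and 3, 9 and 11 in males. No ID of the 3 genes reached 10 counts in any sample, so none was tested.

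Whether these low counts reflect the level of the genes is uncertain. Bmpr1b has 6 RefSeq transcript accessions in the gene table used, Acvr1 has 5, Smad5 has 3 and Acvr2b has 2, whereas Bmpr2, Bmpr1a, Acvr2a, Smad1 and Smad7 have 1. Over protein-coding genes, the median summed level was 15.2 CPM for 11458 genes with 1 accession, 0.665 CPM for 3116 genes with 2 and 0.691 CPM for 2830 genes with 3 or more. The share of genes with an ID at the count minimum was 73.7%, 50.1% and 49.3%. Grouped instead by the number of IDs in the count tables, it was 66.0% for 1 ID, 60.0% for 2 and 68.3% for 3 or more. Smad4 has 4 accessions and 1 counted ID, and was well counted. How reads that several accessions of a gene share were counted is not given in the sources used here. The part of the number of accessions in these counts was not tested.

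The sex difference was set beside transcript length and GC content, because both moved with it over the 11777 of 13374 tested IDs that have an annotated length and GC content. The median log2 fold change fell from 0.22 in the shortest decile of length to -0.18 in the longest, and rose from -0.11 in the lowest decile of GC content to 0.20 in the highest. Bmpr2 at 3507 nt was in decile 7 of length (median -0.02) and at 45.3% GC in decile 3 of GC (median -0.07). Bmpr1a and Acvr2a were in the same deciles, 9 of length and 1 of GC, each with a median of -0.11. Smad4 at 49.4% GC and Smad1 at 51.5% GC lay in deciles with medians of -0.01 and 0.02.

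With the length and GC trends removed from the counts, Bmpr2 had a log2 fold change of -0.40 (edgeR unadjusted p 0.001822, adjusted p 0.3815). At the longer length of 11087 nt the same procedure gave -0.16 (unadjusted p 0.1404, adjusted p 0.597), and 316 IDs of 8870 to 13843 nt had a median of -0.21 without it. The size of the Bmpr2 difference thus varied by over 1.5 times with the length assigned to it. With the trends removed, Bmpr1a moved to -0.03 and Acvr2a to 0.22 (edgeR unadjusted p 0.0455, adjusted p 0.4808). The difference between these 2 genes was about the same before and after, since they share their deciles at their longest transcripts.

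**Figure D3:**
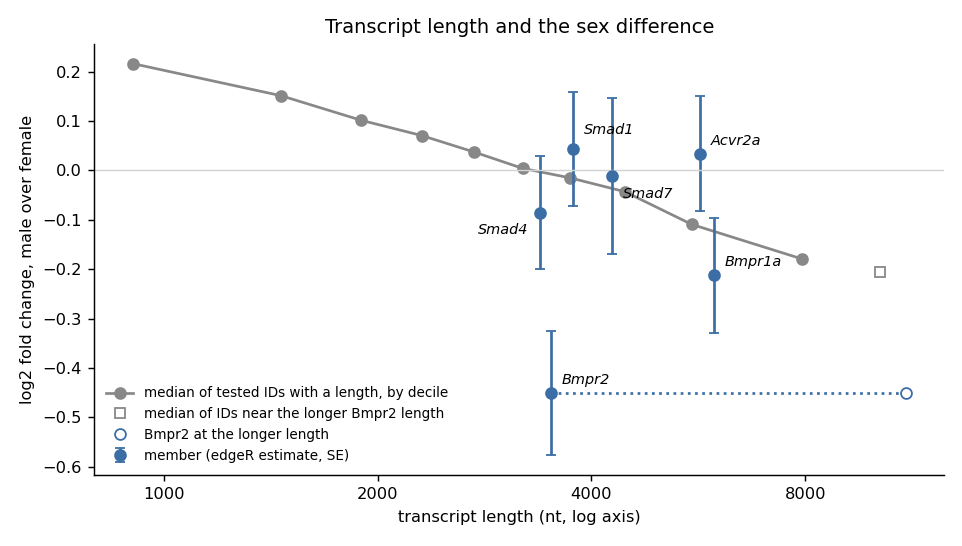
Log2 fold change (male over female) against transcript length (nt, log axis). Grey points are medians over the 11777 tested IDs with an annotated length, in each decile of length, falling from 0.22 to -0.18, the open square is the median of 316 IDs near the longer Bmpr2 length, and blue points with SE bars are the members. Bmpr2 lies below the grey line at 3507 nt and at 11087 nt (open circle), and Acvr2a lies above it.

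**Figure D4:**
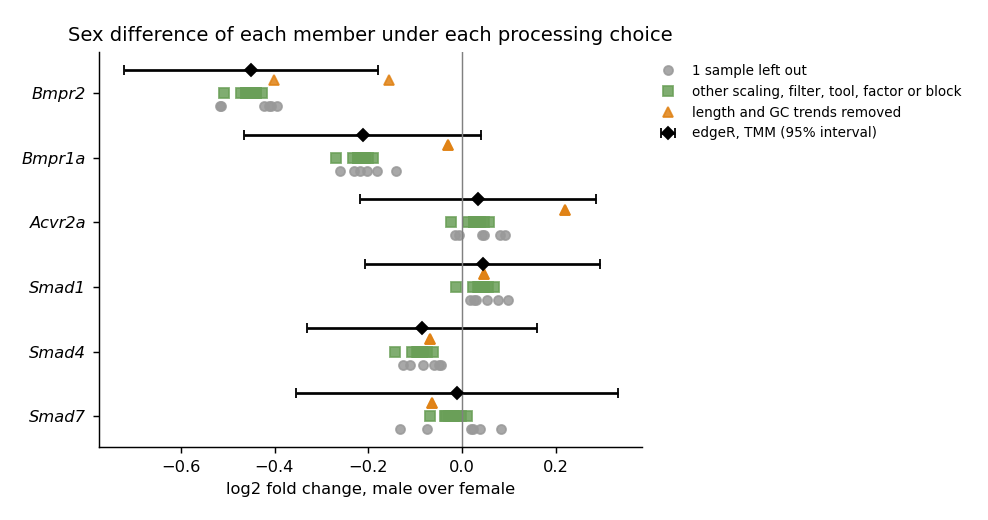
Log2 fold change (male over female) of each tested member by edgeR with TMM scaling (black, 95% interval) and under 19 alternatives. Bmpr2 stayed below 0 throughout, between -0.52 and -0.16, and Acvr2a, Smad1 and Smad7 crossed 0 under some of them.

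Markers of other cell types were read beside the Bmpr2 difference. Summed levels of neural progenitor, pericyte, cartilage, microglia and erythroid markers overlapped between the sexes, as did those of neurons, fibroblasts and muscle. Only the endothelial and choroid plexus lists did not overlap. Of all single tested IDs, 8.33% lay entirely lower and 8.73% entirely higher in males. The summed level of 6 endothelial markers was 619 to 658 CPM in females and 522 to 597 CPM in males, without overlap, as for Bmpr2, which endothelial cells are known to express. Of these 6, Pecam1 and Tek were below the count minimum, and of the 4 others 3 were higher in females and 0 were called by edgeR. Choroid plexus markers moved the other way without overlap, at 449 to 545 CPM in females and 566 to 739 CPM in males. Of these 4 markers Folr1 was below the count minimum, 1 of the 3 others was higher in females, and 0 were called by edgeR. The part of either cell type in the Bmpr2 difference was not tested.

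The 5 transcripts whose pattern over the 6 samples was most like that of Bmpr2 were sought among 8357 tested IDs of other genes with a mean of at least 50 counts. Likeness was the root mean square distance between log2 CPM values centred on each ID's mean. They were Crebbp (0.0344), a histone acetyltransferase and coactivator, Atf7ip (0.0406), a partner of a histone methyltransferase, Peg10 (0.0417), an imprinted retrotransposon-derived gene, 0610030E20Rik (0.0466) and Sema5a (0.048), a semaphorin. Crebbp followed Bmpr2 closely, with 778, 756 and 652 CPM in females and 484, 499 and 585 CPM in males. Among the members, Bmpr1a was nearest to Bmpr2 at rank 607 (0.165), followed by Smad4 at 1389, Smad1 at 2759, Acvr2a at 2922 and Smad7 at 3354. The 5 IDs were picked as the nearest, so their closeness is a description. Crebbp (7507 nt), Peg10 (6662 nt) and Sema5a (10809 nt) were in the longest decile of transcript length, where the median log2 fold change was -0.18. 0610030E20Rik (4632 nt) was in decile 8 (median -0.04), and Atf7ip had no annotated length.

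The wider pathway was read from lists of ligands, other receptors, other Smads, antagonists, regulators and target genes. Of 84 listed genes, 79 had an ID and 58 IDs were tested. None was called by edgeR at an adjusted p under 0.05, and 1 was lower and 5 were higher at an unadjusted p under 0.05, beside the 4.82% and 6.68% of all IDs given above. By sign, 40 were lower and 18 higher in males, beside 6822 and 6552 of all tested IDs. The median was -0.12 against -0.01 over all tested IDs. Of the alternatives, 3 called some of them. These were 3 pathway IDs with 2 RUVr factors in edgeR (Inhba, Nbl1 and Id3), 2 with DESeq2 and 1 RUVr factor (Inhba and Id3) and 1 without a count filter (Id3), beside 3.55%, 2.77% and 1.18% of all IDs tested there.

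Among ligands, 10 of 11 tested BMP and GDF IDs were lower in males by sign and 0 passed either threshold, with a median of -0.13. Over all 13374 tested IDs, 6822 were lower, and some of the 11 were near the count minimum. The most abundant was Bmp7, at 73.8 to 101.9 CPM in females and 73.0 to 92.6 CPM in males. Of 6 activin, nodal and myostatin IDs, 5 were lower, and the subunits of activin A and activin B had opposite signs. Inhba, the activin A subunit, had 47.5, 44.8 and 39.7 CPM in females and 25.9, 24.1 and 34.0 in males, without overlap (log2 fold change -0.65, SE 0.17, edgeR unadjusted p 0.00245, adjusted p 0.338). Inhbb, the activin B subunit, had 16.2, 15.7 and 22.9 CPM in females and 32.0, 26.4 and 21.6 in males, which overlapped (0.53, SE 0.21, edgeR unadjusted p 0.0268, adjusted p 0.385). With the length and GC trends removed, Inhba was larger in size at -0.81 (edgeR unadjusted p 0.0003554, adjusted p 0.364). Inhbb was then at 0.42 (edgeR unadjusted p 0.0418, adjusted p 0.481). Gdf11 was the most abundant of that list at -0.08, and at -0.03 without female sample 1. Of 3 listed TGF-beta ligands 2 were tested, and both were lower by sign. Tgfb3 was at -0.17, and at -0.105 without female sample 3 or male sample 2.

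Of 8 IDs of other receptors and co-receptors, 5 were lower and 3 higher. Acvr1b, the type I receptor for activins, had 145, 125 and 153 CPM in females and 176, 182 and 158 in males (log2 fold change 0.28, SE 0.13, edgeR unadjusted p 0.0444, adjusted p 0.425). All 3 male values lay above the female values. Tgfbr3, a co-receptor, was at -0.14 and moved to 0.01 with the length and GC trends removed, and to -0.09 without male sample 2. Of 3 other Smads, 2 were lower, among them Smad3 at -0.13, which carries activin and TGF-beta signals. Without female sample 1, Smad3 was at -0.06.

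Of 12 antagonists and modulators, 8 were lower and 4 higher. Nbl1, a secreted BMP antagonist, had 76.5, 44.2 and 86.8 CPM in females and 110.0, 91.1 and 91.2 in males, without overlap (log2 fold change 0.49, SE 0.20, edgeR unadjusted p 0.0326, adjusted p 0.396). Female sample 2 was well below the other females, and without it the log2 fold change of Nbl1 was 0.25 (edgeR unadjusted p 0.12), against 0.70 without female sample 3. Fstl1, the most abundant ID of the list at 1336 to 1698 CPM, was at 0.04 and turned sign under 4 alternatives. Of 9 regulators of receptors and Smads, 6 were lower, among them the ubiquitin ligase gene Smurf2 at -0.07, which turned to 0.06 with the length and GC trends removed. Without male sample 2, Smurf2 was at -0.01.

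Among BMP target genes, 5 of 7 tested IDs were higher in males by sign, with a median of 0.12. Id3, an inhibitor of helix-loop-helix factors that BMPs induce, had 86.3, 55.3 and 96.1 CPM in females and 137, 114 and 108 in males, without overlap (log2 fold change 0.58, SE 0.18, edgeR unadjusted p 0.007118, adjusted p 0.341). Hey1, a helix-loop-helix repressor, had 42.0, 39.2 and 48.2 CPM in females and 55.8, 60.0 and 47.7 in males, which overlapped (0.33, SE 0.15, edgeR unadjusted p 0.0489, adjusted p 0.433). Id2, the most abundant target, was at 0.22 (edgeR adjusted p 0.522), and at 0.14 without female sample 1 and 0.13 without male sample 1. Id3 (1278 nt), Id2 (1270 nt) and Nbl1 (1793 nt) are short transcripts, in deciles of length with medians of 0.15, 0.15 and 0.10. With the length and GC trends removed, Id3 was at 0.35 (edgeR unadjusted p 0.0317), Id2 at 0.10 (0.343), Hey1 at 0.26 (0.0768) and Nbl1 at 0.23 (0.127), each closer to 0 than before, with Id3, Id2 and Nbl1 moving by over 1.5 times. Without female sample 2, the lowest for Id3, its log2 fold change was 0.39. When each sample was left out in turn, the edgeR unadjusted p of Inhba and Id3 stayed under 0.05 throughout, and that of Inhbb, Acvr1b, Nbl1 and Hey1 rose above it in some of the fits.

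**Figure D5:**
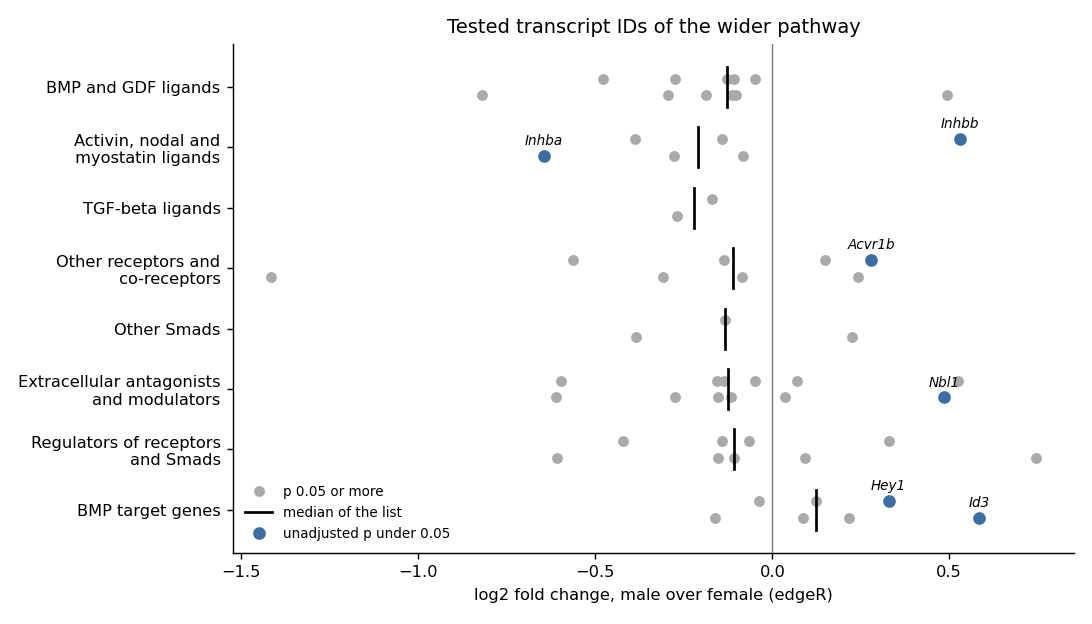
Log2 fold change (male over female, edgeR) of the 58 tested transcript IDs of the wider pathway by list, with the median of each list as a black bar. Named points in blue had an unadjusted p under 0.05, 1 of them lower and 5 higher in males, and the median lay below 0 for every list except the target genes (0.12).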

How the data were processed

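Counts per RefSeq transcript ID, deposited by the authors as raw counts, were used for 3 female and 3 male samples. Per the study's methods and the submitters' processing notes, reads were trimmed with Trimmomatic 0.32, aligned to mm9 with TopHat2 2.1.1, assembled with Cufflinks 2.2.1 and counted with featureCounts 1.5.1. Handling of shared reads is not given in the sources used here. No source ties replicates to litters or dates, so p-values measure the spread between these pools.

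Testing was restricted to IDs that reached 10 counts in any sample, and used edgeR 4.0.16 (R 4.3.3) with TMM scaling, the quasi-likelihood F test and Benjamini-Hochberg adjustment over 13374 IDs, with calls at an adjusted p under 0.05. DESeq2 1.42.0 served as an alternative. Code was tested on simulated data. Symbols came from a RefSeq gene table (23359 of 23485 IDs), and positions, length and GC content from GENCODE for NCBIM37, taking the longest coding transcript. RUVr factors came from edgeR residuals. Length and GC trends were removed by lowess (span 0.3) per sample over 11777 IDs.

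The members, lists and tests were chosen with earlier results of these data known. All members are named. From each wider list the text names tested IDs at an unadjusted p under 0.05 with a mean of at least 50 counts, at most 4, and the most abundant ID, and beside these 3 sex markers, genes of the cell type marker lists and the 5 IDs nearest to Bmpr2 in pattern. The ratios between members and the longer Bmpr2 length were chosen after values were seen.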

Additional observations from a re-analysis of the deposited data

How the results depend on the processing

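Bmpr2 kept its direction in all 19 alternatives. It was called with DESeq2 (-0.46), edgeR with 2 RUVr factors (-0.44) and DESeq2 with 1 RUVr factor (-0.45), each giving 1 member called. No member was called elsewhere. IDs called over the whole table numbered 4, against 107 with DESeq2, 276 without a filter, 1 with 10 counts in every sample, 36 and 475 with 1 and 2 RUVr factors in edgeR, 370 with DESeq2 and 1 RUVr factor, and 3 to 51 with 1 sample left out (51 without female sample 3). Wider pathway calls were 0, against 1 without a filter, 3 with 2 RUVr factors and 2 with DESeq2 and RUVr. Pathway IDs at an unadjusted p under 0.05 numbered 6, against 10 with 1 and with 2 RUVr factors in edgeR, 9 with DESeq2 and 1 RUVr factor, 9 with the trends removed at either Bmpr2 length, and 2 (without female sample 2) to 8 with 1 sample left out. Members at that level numbered 2 with upper-quartile scaling, with 2 RUVr factors (Bmpr2 and Bmpr1a in both) and with the trends removed (Bmpr2 and Acvr2a). With the trends removed at the longer Bmpr2 length, 1 member passed, Acvr2a, while Bmpr2 was at -0.16 (edgeR unadjusted p 0.1404), the one alternative of the 19 in which its unadjusted p was above 0.05.

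Signs turned near 0. Upper-quartile scaling gave -0.023 for Acvr2a, -0.014 for Smad1 and -0.021 for Fstl1, and no filter gave 0.011 for Smad7. With the length and GC trends removed, the type I median moved to -0.031, Tgfbr3 to 0.0139 and Smurf2 to 0.0634. With the longer Bmpr2 length, chosen after seeing the data, these 3 were at -0.031, 0.014 and 0.0633 and the type II median was 0.031. Leaving out 1 sample gave -0.015 to 0.091 for Acvr2a, -0.13 to 0.083 for Smad7, -0.22 to 0.021 for Bmp7 and -0.046 to 0.14 for Fstl1. The cause was not tested.

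Replicate numbers did not pair the samples. Same-numbered samples had correlations of -0.316, -0.0359 and -0.267 between their deviations from the sex means (8358 IDs). Among differently numbered samples, female 1 with male 3 (0.275) and female 3 with male 1 (0.269) were highest. The others lay between -0.0984 and 0.1505. Whether samples of both sexes shared a batch was not tested. With the replicate block Bmpr2 was at -0.45 (edgeR adjusted p 0.508), and 0 members, 0 pathway IDs and 4 IDs in all were called, the same numbers as without it. Depth limits Smad7 most among the tested members, with 188 counts in its lowest sample.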
